A study of Mus musculus with 21 samples.

Results

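The 10 desmosomal genes described here are Dsc1, Dsc2, Dsc3, Dsg1a, Dsg2, Dsg3, Dsp, Jup, Pkp1 and Pkp3, taken by gene symbol from the 43193 symbols of the deposited transcript annotation. Each symbol fell in 1 of the 32052 loci of the deposited expression table. RNA was sequenced from circumvallate taste buds of wild type C57BL/6J mice aged 20 to 24 weeks, an inbred strain, with 7 libraries in each of the groups Ad lib, Satiated and Hungry. The papillae at the back of the tongue were dissected whole, and cDNA was primed with oligo(dT), per the labels. Hours of feeding or fasting are not given there, and nothing in the labels says whether a library is 1 animal or a pool. The table carries the letters C, F and H for the conditions, but all 5 value columns were the same for the letters at every locus, with 0 loci differing. No level could therefore be compared between fed and fasted mice. Each value below pools the 21 libraries, as the authors' mean and variance of fragments scaled for library depth. The table gives no value for a single library. Its variances, behind every SD and CV below, come from sets of 8, 7 and 6 libraries, which do not match the labelled 7, 7 and 7, and which set is which condition is not known.

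Desmosomes are spot-like junctions that tie the keratin filaments of neighbouring epithelial cells together. Their adhesive part is made of desmogleins (Dsg) and desmocollins (Dsc), cadherins that reach across the gap between cells. Inside the cell plakoglobin (Jup) and plakophilins (Pkp) bind the cadherin tails, and desmoplakin (Dsp) links that plaque to keratin. Simple epithelia rely on Dsg2 and Dsc2, whereas stratified epithelia such as epidermis and tongue surface add Dsg1, Dsg3, Dsc1, Dsc3 and Pkp1 in layers. The taste bud is a cluster of elongated cells with simple keratins set in a stratified, keratinizing epithelium, so both kinds of isoform can occur in this tissue.

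All 10 genes passed the detection mark, set at a mean of 10 fragments that match an annotated transcript (compatible fragments), as did 42.0% of all loci. The mean library held 21881979 compatible fragments. At the 10 genes the counting error alone gives a coefficient of variation (CV, the SD divided by the mean) between 0.0066 at Dsp and 0.0731 at Dsc1, well under the CVs measured. Taste cell markers were detected for 9 of 9 genes, with CVs from 0.103 to 0.219 and a summed level of 80373 fragments. The gustducin gene Gnat3 had a CV of 0.131, the acid-sensing channel genes Otop1 and Pkd2l1 had 0.116 and 0.196, and the potassium channel gene Kcnj1 had 0.175. Among markers of other tissue, 2 of 6 fibroblast, 1 of 5 measured muscle, 4 of 5 endothelial and 3 of 6 leukocyte genes were detected. The fibroblast genes Dcn and Pdgfra had 364 and 814 fragments, and the muscle gene Myh2 had 44.1. The endothelial genes Vwf, Tek, Pecam1 and Kdr had 1508, 811, 42.6 and 10.7. Kdr had a CV of 4.04, and its highest library held at least 82.6% of the sum. The lysozyme gene Lyz2 had 33435 fragments, whereas the leukocyte genes Csf1r and Ptprc had 511 and 47.4, Ptprc with a CV of 2.14. The loci of Pdgfra, Myh2, Csf1r and Ptprc also hold other symbols. The defining collagen gene Col1a1 had 0.180 fragments, the desmin gene Des had 0.791, the endothelial cadherin gene Cdh5 had 0.0403 (but 209 total fragments, with a CV of 0.333) and the T cell gene Cd3e was listed at 0.

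Levels of the 10 genes spanned a wide range once divided by the length of the longest transcript that matched the reference. The simple-epithelium desmocollin Dsc2 stood highest, with 3901 ± 994 fragments per kb (SD, n = 21 libraries). The plaque genes Dsp and Jup followed with 2408 ± 538 and 2023 ± 379 fragments per kb. Dsc3, the desmocollin of basal stratified cells, had 1745 ± 285 fragments per kb, and Pkp1, the plakophilin of stratified epithelium, had 1593 ± 469. In the middle of the order came Dsg2 with 846 ± 116, Dsg3 with 388 ± 243 and Pkp3 with 296 ± 89.5 fragments per kb. Lowest were the genes of late epidermal differentiation, Dsg1a with 62.0 ± 109 and Dsc1 with 49.6 ± 76.9 fragments per kb.

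Several neighbours in this order did not differ beyond their spread. The steps from Dsc2 to Dsp, from Pkp1 to Dsg2, from Dsg2 to Dsg3 and from Pkp3 to Dsg1a were larger than the greater SD of each pair. Each of these steps depended on the scale. Without division by length Dsp stood above Dsc2, with 22970 and 18197 fragments. On that scale Pkp3 had 865 fragments and Dsg1a 352 ± 618, a step within the SD. Divided by the median transcript, Pkp3 at 1410 passed Dsg2 at 1359 and Dsg3 at 388. By total fragments per kb Pkp1 stood at 1604 and Dsg2 at 1555, and over the union of exons Dsg2 stood at 449.5 and Dsg3 at 388, which is within those SDs. By the longest transcript, the steps from Dsp to Jup, Jup to Dsc3, Dsc3 to Pkp1, Dsg3 to Pkp3 and Dsg1a to Dsc1 were within the greater SD. These SDs were taken within sets of libraries by the authors and describe scatter between libraries, not the error of the mean. Because cDNA started at the poly(A) tail, fragments may not cover long transcripts such as that of Dsp evenly, and how far this moved a level per kb was not tested. The divisor is the longest reference-matched transcript, coding or not. The longest coding transcript in GENCODE M21 has 3156 stretches of 50 bases at Jup and 6163 at Dsg3, against divisors of 4880 and 4108 bases. By coding length Jup would stand higher and Dsg3 lower, but those levels were not taken.

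**Figure D1:**
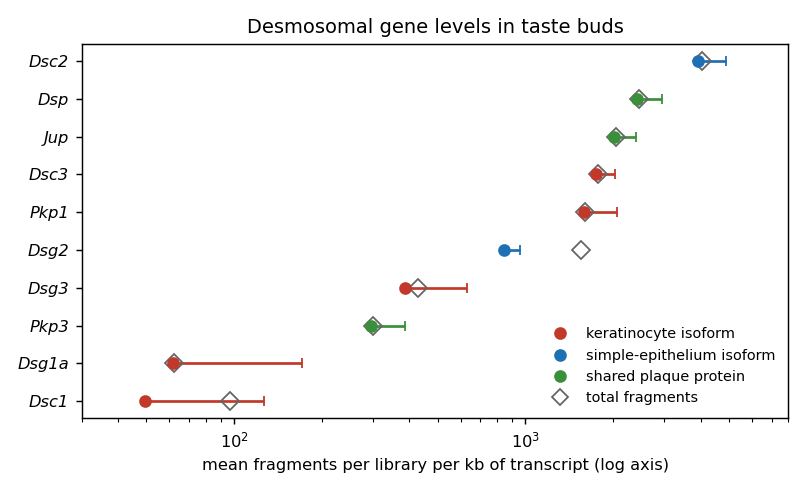
Mean compatible fragments per library per kb of the longest reference transcript (filled points, log axis) for the 10 desmosomal genes, with bars reaching 1 SD upward over 21 libraries; open diamonds give total fragments of the locus per kb. Dsc2 leads with 3901, Dsg1a and Dsc1 lie lowest, and only at Dsg2 and Dsc1 does the diamond stand well to the right of the point.

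Desmocollins outweighed desmogleins. Summed per kb, the 3 desmocollin genes reached 5695 fragments, 4.25 times the 1341 of the 6 desmoglein genes of the cluster (Dsg1a, Dsg1b, Dsg1c, Dsg2, Dsg3 and Dsg4). By total fragments the ratio was 2.58, a scale added after the data were seen. Dsc2 made up 68.5% of the desmocollin sum, Dsc3 30.6% and Dsc1 0.871%. Among desmogleins, Dsg2 made up 63.1%, Dsg3 28.9% and Dsg1a 4.62%. The level of the stratified isoform was 0.447 of the simple one for Dsc3 to Dsc2 and 0.458 for Dsg3 to Dsg2. For the Dsg pair the relative spread of that ratio between libraries was 0.642, and for the Dsc pair it was 0.303, taking the genes as independent, which the table cannot show. Counted over all exons of the locus, which include Ttr, the Dsg ratio was 0.863. It was 0.276 by total fragments, 0.285 by the median transcript and 0.327 without length, against 0.439, 0.432 and 0.509 for the Dsc ratio. By coding length the Dsg ratio would be lower than 0.458, and it was not taken.

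Scatter between libraries differed widely among the 10 genes. The authors' model gives for every locus a fitted variance, the variance it assigns to a gene of that mean. In 9 of the 10 genes the measured variance lay above it, and in Dsg2 it lay below. Over all detected loci 26.1% lay above. These members were chosen with earlier results of these data known. The log2 ratio of measured to fitted variance had a median of 1.01 over the 10 genes, against −0.65 over the 13467 detected loci. For normally distributed values a variance from 21 libraries in 3 sets has a sampling SD of about 0.495 on this log2 scale. The ratios of 0.07 at Dsc3, 0.47 at Jup and −0.49 at Dsg2 lie within 1 such SD of the fitted value. They cannot be told from it, so that Dsg2 lay below is not resolved. The ratios of 0.77 at Dsp and 0.78 at Pkp3 lie within 2 such SDs.

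Relative to the fitted variance, Dsg1a, Dsc1 and Dsg3, 3 of the 5 keratinocyte isoforms, varied most. Dsg1a, the desmoglein of upper epidermal layers, had a mean of 352 ± 618 fragments (SD, n = 21) and a CV of 1.75. Its variance was 29.3 times the fitted one, a log2 ratio of 4.87 that exceeded those of 99.9% of detected loci. Since its SD is larger than its mean, the libraries were very uneven. With no value below 0, such a variance requires that the highest library held at least 1435 scaled fragments, 19.4% of the sum over libraries, where an even spread would give 4.76%. Which library this was, and in which group, is not given by the table.

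Dsc1, the desmocollin found with Dsg1 in upper layers, had 187 ± 290 fragments and a CV of 1.55. Its log2 variance ratio was 3.82, above 99.5% of detected loci, and its highest library held at least 637 scaled fragments, 16.2% of the sum. Dsg3, the desmoglein of basal and lower layers and of oral mucosa, had 1593 ± 998 fragments and a CV of 0.627. Its log2 ratio was 3.40, above 99.3% of detected loci. All 3 genes stood far above the cloud of loci at their level.

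Pkp1 and Dsc3 behaved otherwise, although stratified epithelium also uses them. Pkp1 had 7437 ± 2190 fragments with a CV of 0.295 and a log2 variance ratio of 1.78. Its locus also holds the clone-named transcript RP23-320P13.1, whose fragments are counted with it. Dsc3 had 9255 ± 1511 fragments with a CV of 0.163, near the fitted CV of 0.159 at its level. The CV of Dsc1 was 9.50 times that of Dsc3. This difference was not tested, as the table gives 1 variance per gene and no value per library.

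Of the simple-epithelium isoforms, Dsg2 was the steadiest of the 10 genes by compatible fragments. It had 4878 ± 668 fragments, a CV of 0.137 and a log2 variance ratio of −0.49. The locus of Dsg2 also holds the antisense gene Gm16090 and Ttr, the transthyretin gene, so its level is not that of Dsg2 alone. Dsc2 had 18197 ± 4636 fragments with a CV of 0.255 and a log2 variance ratio of 1.24, above 93.9% of detected loci. Dsc2, a simple-epithelium isoform, thus had a larger CV than Dsc3, a keratinocyte isoform, and the split by class name did not hold within the desmocollins.

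The plaque genes used by both kinds of epithelium lay between these extremes. Dsp had 22970 ± 5130 fragments, a CV of 0.223 and a log2 variance ratio of 0.77. Its locus also holds the clone-named transcript RP23-406J20.2, whose fragments are counted with it. Jup, which also serves adherens junctions, had 9871 ± 1850 fragments, a CV of 0.187 and a ratio of 0.47. Pkp3, the plakophilin found in most epithelial layers, had 865 ± 261 fragments, a CV of 0.302 and a ratio of 0.78. By class the median log2 ratio was 3.40 for the 5 keratinocyte isoforms, 0.77 for the 3 plaque genes and 0.37 for the 2 simple-epithelium isoforms. The order of the last 2 classes turned by total fragments, with 0.71 for plaque and 1.30 for simple-epithelium isoforms, and at loci of 1 symbol, with 0.63 and 1.24.

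**Figure D2:**
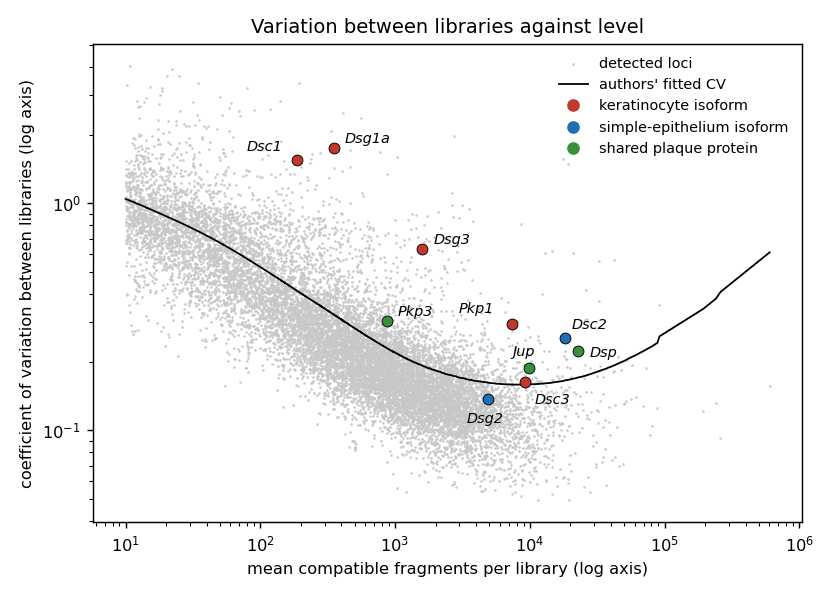
CV between libraries against mean compatible fragments per library, both on log axes, for all detected loci (grey) and the 10 desmosomal genes (coloured by class), with the authors' fitted CV as a black line. Dsg1a, Dsc1 and Dsg3 stand far above the line at CVs of 1.75, 1.55 and 0.627, Dsc3 sits on it and Dsg2 lies under it.

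The cadherin genes lie in 1 cluster of 713 kb on chromosome 18 (GRCm38), from Dsc3 at 19960930 to the end of the Dsg2 locus at 20674324. The desmocollins lie on the minus strand in the order Dsc3 (19960930 to 20002097), Dsc2 (20030633 to 20059554) and Dsc1 (20084703 to 20114773). The desmogleins follow on the plus strand as Dsg1c (20247340 to 20285031), Dsg1a (20310811 to 20343350), Dsg1b (20376729 to 20410196), Dsg4 (20436175 to 20471821), Dsg3 (20510304 to 20541310) and Dsg2 (20558074 to 20674324). The outer genes Dsc3, Dsc2 and Dsg2 had the lowest CVs of the cluster, from 0.137 to 0.255. Every gene between them had a CV of at least 0.627, counting Dsg1c and Dsg4, which lay under the detection mark. At the means of Dsg1c and Dsg4, 1.72 and 0.504 fragments, the counting error alone gives CVs of 0.763 and 1.41. The CVs of these 2 genes therefore say little about their scatter. Levels followed the same layout, with 9255, 18197 and 4878 fragments at the outer genes against 1593 at most between them. With 9 genes in 1 cluster this is a description of position.

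**Figure D3:**
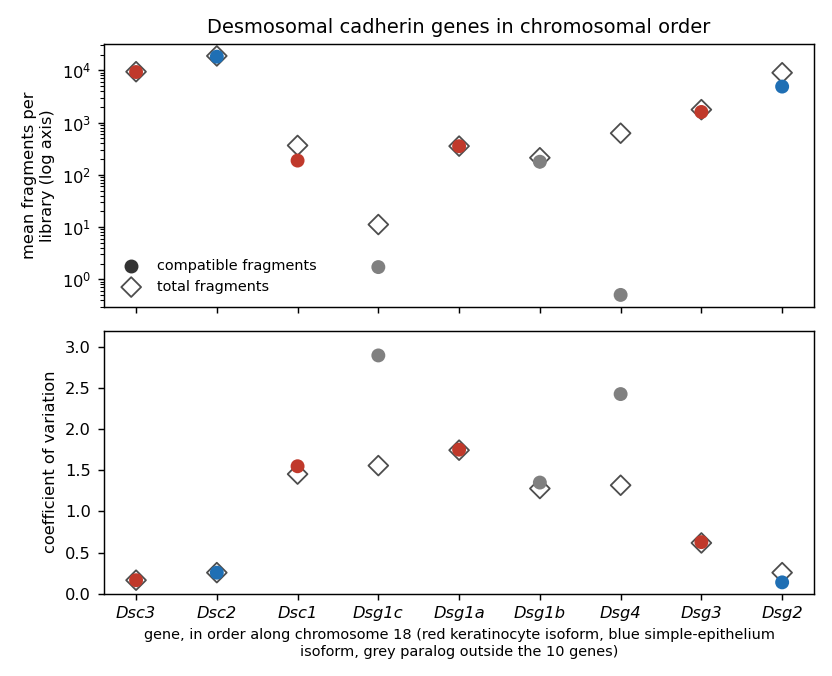
The 9 desmosomal cadherin genes in their order along chromosome 18, with mean fragments per library above (log axis) and CV between libraries below; filled points are compatible fragments and open diamonds total fragments. Dsc3, Dsc2 and Dsg2 at the ends combine the highest levels with CVs from 0.137 to 0.255, and Dsg4 has 625 total but 0.504 compatible fragments.

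The desmoglein 1 genes are near copies of each other, which limits their separate levels. Of all 50-base stretches of the longest Dsg1a transcript in GENCODE M21, 31.6% also occur unchanged in that of Dsg1b and 18.8% in that of Dsg1c. For 100-base stretches these shares were 21.9% and 9.09%. How fragments matching several copies were counted is not given in the sources used here. Dsg1b had 178 ± 240 fragments with a CV of 1.35 and a log2 variance ratio of 3.37. Dsg1c had 1.72 ± 4.97 fragments, under the detection mark. The split between Dsg1a and Dsg1b is uncertain. No pair among the 10 genes shared such a stretch.

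Compatible and total fragments agreed closely at most of the 10 genes and parted at Dsc1 and Dsg2. Over all detected loci the median compatible share of total fragments was 95.0%. At Dsc3, Dsg1a, Pkp1, Dsc2, Dsp, Jup and Pkp3 it ran from 96.7% to 99.5%, and at Dsg3 it was 90.2%. At Dsc1 the share was 51.4%, with 364 total fragments, and the CV of the total was 1.45. At Dsg2 it was 54.4%, with 8965 total fragments and a CV of the total of 0.255. The 4088 other fragments of the Dsg2 locus had a CV between 0.396 and 0.723, the range that the SDs of compatible and total fragments allow where the total is the sum of both kinds. By total fragments the log2 variance ratio of Dsg2 was 1.37 and all 10 genes lay above the fitted variance, against 26.8% of loci. The steadiness of the Dsg2 locus therefore holds for its compatible fragments only.

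The number of annotated isoforms differed among the 10 genes. The merged annotation holds 15 transcripts of Jup (chromosome 11, 100368958 to 100397763), of which 5 carry the code of a new isoform. It holds 12 transcripts of Pkp3 (chromosome 7, 141078218 to 141090510), 2 of them new, and 6 of Dsc2, 1 of them new. Pkp1 (chromosome 1, 135871395 to 135919207) has 6 transcripts, Dsp (chromosome 13, 38150477 to 38198577) has 3 and Dsg2 has 3, all matching the reference. Dsc1, Dsc3, Dsg1a and Dsg3 have 1 transcript each. The longest reference-matched transcripts ran from 2919 bases at Pkp3 to 9538 bases at Dsp. Levels per isoform are not part of the table.

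Other genes of the desmosome also varied. Of 10 listed paralogs and associated genes 8 were detected, 6 above the fitted variance and 2 below, beside 26.1% of all detected loci above. Their log2 ratios ran from −0.53 to 3.37 with a median of 0.69. Perp, a membrane protein needed for desmosome assembly, had 13843 ± 5761 fragments per kb, more than any of the 10 genes, with a CV of 0.416 and a log2 ratio of 2.51. The cornified envelope plakins periplakin (Ppl) and envoplakin (Evpl) had 249 ± 85.3 and 77.3 ± 32.4 fragments per kb, with CVs of 0.342 and 0.419. Pkp2, the plakophilin of simple epithelia and heart, had 327 ± 79.1 fragments per kb with a CV of 0.242. By the longest transcript the level of Pkp2 differed from that of Pkp3 by less than the SD. Divided by the median transcript, Pkp2 had 328 and Pkp3 1410 fragments per kb. Pkp4, a plakophilin relative also found at adherens junctions, had 463 ± 79.8 fragments per kb with a CV of 0.173, and the periplakin partner Kazn had 157 ± 29.8 with a CV of 0.189. Of the summed plakophilin level per kb of the longest transcript, Pkp1 held 59.5%, and without length it held 65.3%. By the median transcript, where Pkp1 had 1995 fragments per kb, its share was not taken.

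Keratins form the filaments that desmosomes anchor. Of 11 keratins of stratified epithelium, 9 lay above the fitted variance and 2 below, with a median log2 ratio of 4.22. Krt4 and Krt13, the keratin pair of upper layers of the mouth lining, had 8957 ± 13424 and 10703 ± 16870 fragments per kb with CVs of 1.50 and 1.58. Krt6a and Krt17, found in tongue papillae and in stressed epithelium, had CVs of 0.561 and 0.557. Of 5 simple keratins, 1 lay above and 4 below, with a median of −0.78, near the −0.65 and 26.1% of all detected loci. The difference between the keratin types was not tested. Krt8 had 20531 ± 1184 fragments per kb with a CV of 0.0577, and its partner Krt18 had 13272 ± 1725 with a CV of 0.130. Krt20 had a CV of 0.234.

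The summed level of stratified keratins was 128837 fragments and that of simple keratins 104267. Stratified keratins are usually taken as markers of stratified epithelium, but no value here places their transcripts in a cell type. Whether the uneven keratins were high in the same libraries as Dsg1a, Dsc1 and Dsg3 cannot be read from means and variances. The part of these keratins in the results was not tested. In such bulk RNA, fewer cells of a type and less RNA per cell cannot be told apart.

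Cell junction genes outside the desmosome lay above the fitted variance about as often as the 26.1% of all detected loci. Of 9 adherens junction genes 2 lay above it and 7 below, with a median log2 ratio of −1.03. Only 4 of these 9 stand at loci of 1 symbol, among them Cdh3 and Nectin1 above the fitted variance and Cdh1 below. The other variances are of loci that also hold other genes. The classical cadherin gene Cdh1 (E-cadherin) had 8191 ± 717 fragments with a CV of 0.0876. Cdh3, the P-cadherin of basal cells, had 47.3 ± 34.4 fragments with a CV of 0.727, close to its fitted CV, and Nectin1 had 382 ± 174 with a CV of 0.455. Of 11 hemidesmosome and basement membrane genes, 2 lay above and 9 below, and 4 of the 11 stand at loci of 1 symbol. Among them the integrin gene Itgb1 had a CV of 0.122. Col17a1, the basal collagen of hemidesmosomes, had 2243 ± 1389 fragments with a CV of 0.619, near that of Dsg3.

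Transcription factors of stratified epithelium fell on either side, 5 of 8 above the fitted variance and 3 below, with a median log2 ratio of 1.40. Grhl1, a factor known to drive desmoglein 1 in epidermis, had 1333 ± 1202 fragments with a CV of 0.902 and a ratio of 4.32. Grhl3, its relative in the epidermal barrier, had 883 ± 653 fragments with a CV of 0.739. Klf4 and Klf5 had 4310 ± 648 and 2341 ± 352 fragments with CVs of 0.150 and 0.151. The 9 taste cell markers had a median log2 ratio of −0.52, with 3 above the fitted variance, also near all detected loci.

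**Figure D4:**
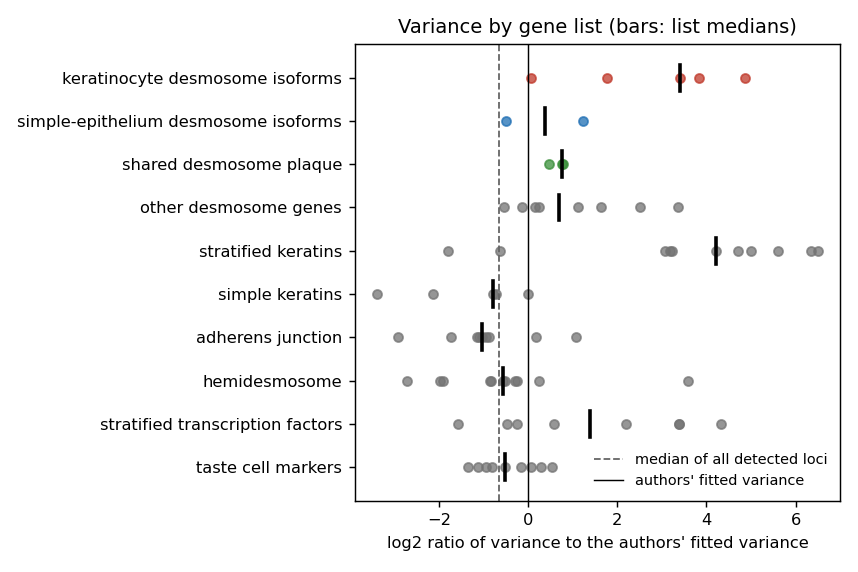
Log2 ratio of measured variance to the authors' fitted variance for each detected gene (points) by gene list, with list medians as black bars; the solid line marks the fitted variance and the dashed line the median of all detected loci at −0.65. Keratinocyte desmosome isoforms and stratified keratins have medians of 3.40 and 4.22, and simple keratins and adherens junction genes have medians of −0.78 and −1.03. Only 4 of the 9 adherens junction genes stand at loci of 1 symbol.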

How the data were processed

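The tools Cuffdiff, Cufflinks, TopHat, Bowtie2, FastQC and Trimmomatic, and the genome build GRCm38.p4, stand in the submitters' processing notes with no role or setting. From the authors come a merged exon annotation and a table of deposited signal values, per the file headers: mean and variance of depth-scaled compatible and total fragments and a fitted variance per locus. They are pooled over the libraries. Column names are those of a Cuffdiff variance model.

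Genes were placed in loci by transcript coordinates, and 3 listed genes were found under older RefSeq symbols. Of 102 listed genes 101 were measured. Loci with a variance over squared mean that 1 library of a set gives (relative tolerance 0.0001) numbered 474, 667 and 454, for sets of 8, 7 and 6 with a divisor of 21. The bound on the highest library is the mean plus the variance over the mean. It and the running median over 501 loci were tested on simulated data.

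The members and lists were chosen with earlier results of these data known. Named were all members, all other desmosome genes and, per list, the 2 highest per kb and the 2 most variable genes at loci of 1 symbol, of which 1 is not reported here; other marker genes near 0 were named after their values were seen. No test between groups was possible. Whether libraries are separate animals is not stated. Transcript sequences came from GENCODE M21 on GRCm38. Python 3.11.15, numpy 2.4.6, pandas 2.3.3, scipy 1.17.1 and matplotlib 3.10.9 were used.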

Additional observations from a re-analysis of the deposited data

Results flagged for a closer look

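In 3 desmosome genes outside the 10, more fragments of the locus were not compatible with annotated transcripts than were compatible, a signal that the levels above do not use. Where in the locus these fragments lie is not given. It lay above the 3 fragments that a count of 0 allows. The hair follicle desmoglein gene Dsg4 had 625 total against 0.504 compatible fragments, with a CV of the total of 1.32, so that its highest library held at least 1712 scaled fragments. The corneodesmosin gene Cdsn had 60.5 total against 11.0 compatible fragments. Dsg1c had 11.2 total against 1.72 compatible fragments.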

How the results depend on the processing

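All 10 genes stayed detected at minimum means of 1 and 50 fragments and by total fragments. With a lowest mean of 187 fragments these settings could not have changed the count. Those above the expected variance numbered 9, beside 26.1% of detected loci, or 10 by total fragments, beside 26.8% of loci. They numbered 10 when a running median replaced the fitted value (49.9% of loci lay above that). With no minimum they numbered 9, beside 32.0% of loci, a count that could not change because all 10 had passed the minimum. At loci of 1 symbol they were 7 of 7. The share over the 8696 detected loci of 1 symbol was not taken, so this count cannot be weighed. By the running median the class medians of the log2 ratio moved to 4.12 for keratinocyte isoforms, 1.46 for plaque genes and 1.36 for simple-epithelium isoforms. The running median lies under the fitted variance at most levels, which raises the ratios of all 10 genes. The simple-epithelium median moved to 1.30 by total fragments and to 1.24 at loci of 1 symbol, where Dsc2 alone was left. At Dsg2 the log2 ratio of −0.49 reversed, to 1.37 by total fragments and 0.35 by the running median. The Dsg3 to Dsg2 ratio moved to 0.863 with the union of exons and was 0.276 to 0.327 under the other scales, and that of Dsc3 to Dsc2 ran from 0.432 to 0.509. The desmocollin to desmoglein sum ran from 2.58 to 5.55, scales added after the data were seen. Divided by the median reference transcript, which short fragments of gene models pull down, Jup led with 13162 fragments per kb. No paired analysis was possible because the table holds no value per library, so libraries could not be left out either. Depth limits Dsg1c and Dsg4, whose compatible means lie under 10 fragments.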

Other observations

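Genes that cut or protect desmosomes differed widely in level. Of 6 listed, 3 were detected, beside 42.0% of all loci. Of these 3, 1 lay above the fitted variance and 2 below, beside 26.1% of all detected loci above. Adam10, a sheddase that cleaves Dsg2, had 10800 ± 1080 fragments with a CV of 0.100. Spink5, which encodes an inhibitor of the kallikreins that digest desmosomes in shedding skin, had 2668 ± 2950 fragments with a CV of 1.11 and a log2 variance ratio of 5.33. Its highest library held at least 5930 scaled fragments, 10.6% of the sum. The kallikrein genes Klk5 and Klk7, named after their values were seen, had 0.974 and 0.371 fragments. Both had a CV of 4.29, the value given by fragments in 1 library of a set of 8.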
